A study of Mus musculus with 12 samples.

Results

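Ampicillin-treated mice were compared with untreated mice in the mesenteric lymph nodes, the nodes that receive lymph from the intestine. The comparison takes the 3 samples titled as ampicillin mesenteric nodes and the 3 titled as control mesenteric nodes, which are 6 of the 12 samples in the series. The other 6 are spleens from further mice under the same treatments. All animals carried the C57BL6 Exon 16 KO Hemophilia A background, in which the gene for clotting factor VIII is disrupted, so controls and treated mice alike lacked this factor. At the age of 3 weeks the treated mice were gavaged with ampicillin and the controls were not, and tissue was taken from both at 6 weeks. The 6 nodes came from 6 different mice by their labels. No group is described as given gavage alone, so gavage and ampicillin cannot be told apart. The factor VIII gene was not analysed here.

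Mesenteric nodes hold B cells in follicles and T cells in the zone between them, on a scaffold of stromal cells that make the chemokines guiding both. Cxcl13 is the stromal chemokine of the follicle and binds Cxcr5 on B cells and follicular helper T cells. Dendritic cells and soluble antigen reach these nodes from the gut wall, where ampicillin, a broad-spectrum penicillin, kills many resident bacteria.

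RNA was counted with the NanoString nCounter Mouse Immunology panel, a set of barcoded probes hybridised to RNA without amplification. The 6 nodes gave totals of 396950 to 652630 counts over 561 genes, and the geometric mean of their 14 housekeeping genes ran from 912.4 to 1501.2, a 1.65-fold range. Counts were divided by a factor from that mean, and every count printed below is scaled in this way. Of the 547 other genes, 445 averaged at least 20 scaled counts over the 12 samples and were tested with the quasi-likelihood test of edgeR. Calls were made where the p-value, adjusted over the 445 genes by Benjamini-Hochberg, was under 0.05. The test was repeated with factors from a trimmed mean of log ratios (TMM), which rests on the bulk of the panel rather than on the housekeeping genes. TMM moved the log2 change of a gene up by 0.057 relative to housekeeping scaling. Replicate nodes differed more than counting noise, with chi-square values per degree of freedom of 3.59 to 6.92 for each pair where counting alone gives about 1.

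Cxcl13 rose and Map4k2 fell in the nodes of ampicillin-treated mice with both scalings. With housekeeping scaling these were the 2 genes called of 445 (0.449%), 1 higher (0.225%) and 1 lower (0.225%), and 88 genes (19.8%) had an unadjusted p under 0.05. With TMM scaling 32 genes were called (7.19%), of which 18 were higher (4.04%) and 14 lower (3.15%), and 127 (28.5%) had an unadjusted p under 0.05. The higher genes include chemokines, an atypical chemokine receptor, cytokine receptor subunits and partners of Toll-like receptors. The lower genes include kinases and a transcription factor of cytokine signalling, kinases of the NF-kB pathway, surface molecules of T cells and the B cell receptor chain Cd79a. Cd81, of the B cell coreceptor, was among the higher genes. In whole nodes fewer cells of a type and less RNA per cell cannot be told apart. The changes were small. The middle 80% of tested genes had log2 changes from -0.34 to 0.30 with housekeeping scaling, and the median stood at -0.05. In all 60.2% of genes lay below 0, against 49% with TMM scaling, where the median was 0.0034. Only Camp and S100a9 moved by more than 1 on the log2 scale, and each averaged under 20 counts in at least 1 group.

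**Figure D1:**
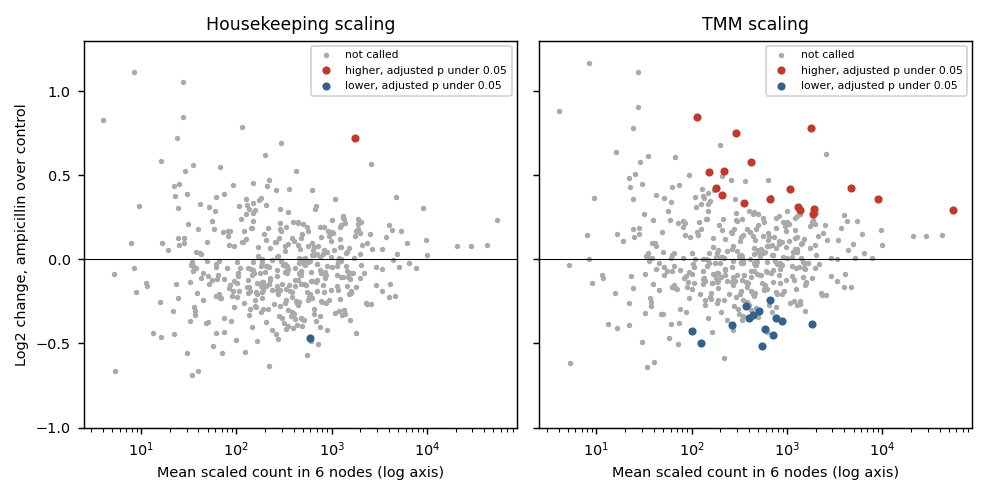
Log2 change of each of the 445 tested genes, ampicillin over control nodes, against its mean scaled count in the 6 nodes on a log axis, with housekeeping scaling (left) and TMM scaling (right). Red and blue points are genes called higher and lower at an adjusted p under 0.05 (edgeR), 2 on the left and 32 on the right.

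The promoters of Cxcl13, Map4k2 and Socs3 are shown because the first pair are the genes called with both scalings and the last is a gene of the JAK-STAT pathway whose transcription STAT factors are known to drive. Each run covers 250 bases before to 50 bases after the gene start, 5′ to 3′ on the coding strand, from RefSeq on GRCm38.p6. Cxcl13 lies at chr5:95956689-95956988 (plus strand), Map4k2 at chr19:6340910-6341209 (plus strand) and Socs3 at chr11:117969317-117969616 (minus strand). Capitals mark matches to a form of the kappaB site of NF-kB (GGGA, N, TT, N, CC in unbroken order), to TTCNNNGAA, the STAT-binding GAS site, or to an interferon regulatory factor element (GAAA, NN, GAAA), searched on both strands.
Cxcl13: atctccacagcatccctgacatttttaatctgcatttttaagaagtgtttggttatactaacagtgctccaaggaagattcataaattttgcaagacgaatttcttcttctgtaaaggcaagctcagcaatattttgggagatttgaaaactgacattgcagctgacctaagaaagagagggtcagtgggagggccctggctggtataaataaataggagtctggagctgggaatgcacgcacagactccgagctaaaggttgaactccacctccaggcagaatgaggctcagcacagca
Map4k2: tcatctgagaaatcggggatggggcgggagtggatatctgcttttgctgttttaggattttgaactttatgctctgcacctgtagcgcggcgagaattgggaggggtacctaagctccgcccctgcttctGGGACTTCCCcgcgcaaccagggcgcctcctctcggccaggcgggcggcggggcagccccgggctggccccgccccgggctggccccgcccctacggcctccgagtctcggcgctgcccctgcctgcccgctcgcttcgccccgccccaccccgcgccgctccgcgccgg
Socs3: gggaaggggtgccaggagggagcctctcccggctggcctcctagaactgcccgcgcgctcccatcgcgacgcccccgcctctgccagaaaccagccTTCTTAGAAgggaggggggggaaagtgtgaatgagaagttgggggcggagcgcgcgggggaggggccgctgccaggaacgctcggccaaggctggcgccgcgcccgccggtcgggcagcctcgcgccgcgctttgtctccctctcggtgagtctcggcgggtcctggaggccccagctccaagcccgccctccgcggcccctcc
The Map4k2 window holds GGGACTTCCC, which begins 120 bases before the start (position -120), the Socs3 window holds TTCTTAGAA at position -154, and the Cxcl13 window holds none of the 3 motifs. The matches do not overlap one another. The letters of the kappaB motif were settled after windows had been seen. Among all 32851 promoter windows of this length 1.2% held the kappaB motif, 8.3% the GAS motif and 3.44% the interferon motif. Among the 410 windows of the 330 tested genes with an entry, the shares were 5.61%, 11.5% and 6.1%. The 13 lower genes with an entry had 14 windows, of which 1 held the kappaB motif (7.14%, Map4k2), 2 the GAS motif (14.3%, Chuk and Socs3) and 0 the interferon motif. The 11 higher genes with an entry had 12 windows, of which 1 held a GAS motif (8.33%, Il7r) and 0 either of the others. A match is a string of letters and not a shown binding site.

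Cxcl13 stood at 2149, 2193 and 2282 scaled counts in ampicillin nodes 1, 2 and 3, and at 1389, 1536 and 1094 in control nodes 1, 2 and 3. The groups did not overlap, the 3 treated nodes lay close together, and control node 3 was the lowest of the 6. The log2 change was 0.72 (SE 0.13, adjusted p = 0.0152, edgeR) with housekeeping scaling and 0.78 (adjusted p = 0.00792) with TMM. With each of the 12 samples left out in turn it passed in 12 of 12 fits with TMM scaling and in 8 of 12 with housekeeping scaling. The 4 that missed left out ampicillin node 1 (adjusted p = 0.0578), ampicillin node 2 (adjusted p = 0.0748), control node 1 (adjusted p = 0.0675) or control node 3 (adjusted p = 0.0646). Cxcr5, its receptor, stood at 472.4, 517.5 and 563.1 against 457.0, 485.1 and 459.2, and the groups overlapped (log2 change 0.15, SE 0.10, adjusted p = 0.448). Ltb and Lta encode the lymphotoxin chains that maintain follicular stroma. Ltb was at 0.03 (SE 0.11, adjusted p = 0.881), while Lta was lower in all 3 treated nodes, at 250.5, 256.7 and 274.4 against 298.8, 338.6 and 310.1 (log2 change -0.28, SE 0.11, adjusted p = 0.189).

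Map4k2 encodes a germinal centre kinase of the stress-activated MAP kinase branch. Its 3 treated nodes held 461.9, 515.5 and 513.7 scaled counts, and its controls 708.0, 665.5 and 689.9. All 3 treated nodes were below all controls by more than the spread within either group. Its log2 change was -0.47 (SE 0.07, adjusted p = 0.00934, edgeR) with housekeeping scaling and -0.41 (adjusted p = 0.0143) with TMM. It passed in 9 of 12 fits with a sample left out under housekeeping scaling, missing without ampicillin node 1 (adjusted p = 0.0507), control node 1 (adjusted p = 0.0675) or control node 3 (adjusted p = 0.0646). With TMM it passed in 11 of 12, missing without ampicillin node 2 (adjusted p = 0.0591). None of the other 6 tested members of the MAP kinase family was called. Mapk14, the p38 alpha kinase, was at 0.08 (SE 0.07, adjusted p = 0.549). Log2 changes in the list of 7 ran from -0.56 to 0.08 with housekeeping scaling. In 3 of the 7, Map4k2 among them, all treated nodes lay below all controls, as in 20.7% of all 445 genes. Over the 12 fits with a sample left out under housekeeping scaling, Mapk11 of this list ran from -0.67 to -0.48. It passed in 0 of these fits.

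The remaining 30 calls were made with TMM scaling alone. The values by sample that follow are housekeeping-scaled counts in ampicillin nodes 1, 2 and 3 and then in control nodes 1, 2 and 3, while log2 changes, SEs and adjusted p values are those of the TMM fit in edgeR unless said otherwise. With housekeeping scaling these 30 had adjusted p values of 0.0942 or more, 21 genes of the panel sharing the value 0.0942. With TMM scaling control node 2 was the highest control for 15 of the 18 higher genes and control node 3 for the other 3. With housekeeping scaling control node 2 was highest for 12, and ampicillin node 1 was the lowest treated node for 13 of the 18. Ampicillin node 1 was also never the highest treated node among the 14 lower genes with housekeeping scaling, against 2 with TMM.

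Beside Cxcl13, the chemokine system gave 3 higher genes. Cxcl12, the stromal ligand of Cxcr4 that retains leukocytes in tissue, stood at 5127, 5407 and 5466 against 3720, 5148 and 3537 (0.43, SE 0.11, adjusted p = 0.046). Control node 2 lay inside the treated range, so the groups overlapped with housekeeping scaling, though not with TMM. Ccl9, a mouse macrophage chemokine that binds Ccr1, was at 184.0, 180.3 and 156.0 against 137.7, 135.9 and 107.1 (0.52, SE 0.12, adjusted p = 0.0355). Ccrl1, now named Ackr4, is an atypical receptor that clears the chemokines Ccl19, Ccl21 and Ccl25 without signalling to migration. It stood at 148.8, 138.6 and 145.6 against 69.33, 118.3 and 65.82 (0.85, SE 0.23, adjusted p = 0.046). Control node 2 was nearer to the treated nodes than to the other controls. Cxcr4, the receptor of Cxcl12, spread widely, with 3519, 3436 and 2285 against 1580, 1920 and 2720, and did not pass (0.63, adjusted p = 0.126).

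Cytokine receptors gave 5 higher genes. Il22ra2 encodes the soluble binding protein that keeps interleukin 22 from its receptor, and stood at 383.6, 316.8 and 390.1 against 174.8, 314.0 and 190.3 (0.75, SE 0.19, adjusted p = 0.044). Ampicillin node 2 and control node 2 were nearly level there. Il7r, the interleukin 7 receptor chain that naive T cells and lymphoid tissue inducer cells need, stood at 1163, 1179 and 1282 against 958.0, 952.5 and 912.8 (0.42, SE 0.09, adjusted p = 0.0305). Its groups were well apart, and it was also called with the 6 nodes fitted alone under housekeeping scaling (adjusted p = 0.024). Il1r1, the signalling receptor of interleukin 1, was at 193.1, 216.0 and 196.4 against 171.9, 171.1 and 129.3 (0.42, SE 0.11, adjusted p = 0.046). Il13ra1, which pairs with the interleukin 4 receptor, was at 373.2, 391.2 and 386.2 against 310.5, 346.8 and 291.8 (0.34, SE 0.08, adjusted p = 0.0435). Ifngr1, the ligand-binding chain for interferon gamma, was at 1934, 2141 and 2151 against 1700, 1855 and 1707 (0.30, SE 0.06, adjusted p = 0.0264). In each of these last 3 the groups did not overlap, and control node 2 or 1 was the nearest control.

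Ly96 and Ly86 encode MD-2 and MD-1, the small proteins that pair with TLR4 and with its relative RP105. Ly96 stood at 210.1, 280.2 and 267.9 against 188.5, 199.2 and 161.0 (0.53, SE 0.11, adjusted p = 0.0305), and Ly86 at 1287, 1389 and 1579 against 1185, 1181 and 1193 (0.31, SE 0.09, adjusted p = 0.0481). For Ly86 the 3 controls were nearly identical and all treated nodes exceeded them. Tlr4 itself, outside the naming rule and added after its values were seen, was at 187.9, 252.7 and 243.2 against 208.0, 227.3 and 218.1 (0.12, adjusted p = 0.501). Litaf, an endosomal membrane protein induced by lipopolysaccharide, was at 238.8, 229.2 and 219.8 against 184.6, 183.9 and 181.6 (0.38, SE 0.10, adjusted p = 0.046), with no overlap.

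The other 6 higher genes were Bst1, Cd9, Cd81, Cd74, Clu and C1s. Bst1, the ectoenzyme CD157 of myeloid and stromal cells, stood at 420.2, 489.0 and 572.2 against 326.2, 404.2 and 302.1 (0.58, SE 0.12, adjusted p = 0.0305). The tetraspanins Cd9 and Cd81 organise membrane complexes, Cd81 within the B cell coreceptor. Cd9 stood at 756.9, 746.8 and 699.6 against 531.2, 652.6 and 605.1 (0.36, SE 0.09, adjusted p = 0.046), and Cd81 at 1882, 2120 and 2035 against 1669, 1877 and 1668 (0.27, SE 0.07, adjusted p = 0.0374). For Cd81 ampicillin node 1 and control node 2 differed by a few counts. Cd74, the invariant chain of MHC class II, stood at 54920, 59720 and 63460 against 51070, 50350 and 49750 (0.29, SE 0.06, adjusted p = 0.0305). Clu encodes clusterin, a secreted chaperone that blocks the terminal complement complex and is abundant in follicular dendritic cells. It stood at 8766, 10720 and 10620 against 8142, 8780 and 7407 (0.36, SE 0.10, adjusted p = 0.0481). C1s, a protease of the first complement component, stood at 1366, 1505 and 1532 against 1237, 1405 and 1096 (0.29, SE 0.08, adjusted p = 0.046). Clu and C1s overlapped with housekeeping scaling, since control node 2 exceeded ampicillin node 1 in both. C1s has a close paralogue in the mouse, and whether the probe separates them was not tested.

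**Figure D2:**
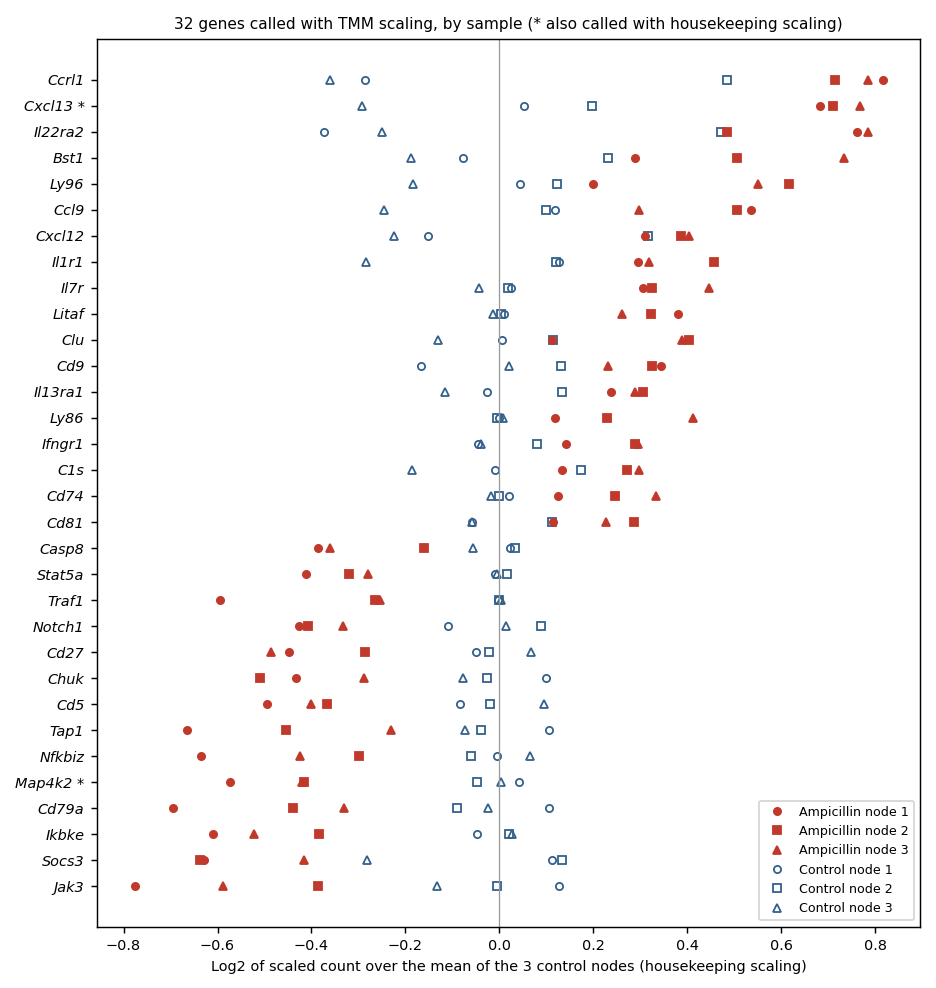
Each of the 32 genes called with TMM scaling in the 6 nodes, as the log2 of its housekeeping-scaled count over the mean of the 3 control nodes; filled red symbols are ampicillin nodes 1 to 3 and open blue symbols control nodes 1 to 3. Asterisks mark Cxcl13 and Map4k2, the 2 also called with housekeeping scaling, and the open square of control node 2 is the highest control in 12 of the 18 higher genes.

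Among the lower genes, 3 belong to the JAK-STAT pathway, through which cytokine receptors signal. Jak3, the kinase bound to the common gamma chain of the receptors for interleukins 2, 7 and 15, stood at 382.3, 501.2 and 435.6 against 714.8, 652.6 and 597.2 (-0.52, SE 0.12, adjusted p = 0.0346). Stat5a, the transcription factor activated by Jak3, was at 311.9, 332.1 and 342.0 against 412.1, 419.4 and 413.2 (-0.28, SE 0.07, adjusted p = 0.0374). Socs3, an inhibitor that STAT factors induce, was at 95.26, 94.75 and 110.5 against 159.2, 161.7 and 121.3 (-0.50, SE 0.13, adjusted p = 0.046). None of the 3 overlapped, and control node 3 came nearest to the treated nodes for Jak3 and Socs3. Jak3 was also called with the nodes fitted alone under housekeeping scaling (adjusted p = 0.024).

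The kinases that release NF-kB and their partners gave a further 4. Ikbke, the inducible IKK-related kinase, stood at 554.6, 647.9 and 589.1 against 818.3, 857.6 and 862.0 (-0.45, SE 0.11, adjusted p = 0.0355). Chuk, the IKK alpha subunit, was at 335.4, 317.9 and 370.6 against 484.4, 444.1 and 429.0 (-0.35, SE 0.09, adjusted p = 0.046). Nfkbiz, a nuclear protein that directs NF-kB to some of its targets, was at 194.4, 245.5 and 225.0 against 300.8, 289.4 and 315.6 (-0.39, SE 0.09, adjusted p = 0.0346). Traf1, an adaptor of TNF receptors, was at 381.0, 478.8 and 482.5 against 574.2, 575.3 and 576.5 (-0.31, SE 0.07, adjusted p = 0.0346). In all 4 the treated nodes lay below every control, and for Traf1 the 3 controls were within a few counts of each other. Casp8, a protease of death receptor signalling, was at 555.9, 650.0 and 565.7 against 737.3, 742.8 and 698.7 (-0.24, SE 0.07, adjusted p = 0.0464).

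Of the surface molecules of lymphocytes, Cd5, an inhibitor of antigen receptor signalling on T cells, stood at 724.2, 790.6 and 772.4 against 962.8, 1006 and 1090 (-0.36, SE 0.09, adjusted p = 0.046). Cd27, a costimulatory TNF receptor of naive T cells, was at 634.2, 709.1 and 617.7 against 835.9, 851.8 and 906.4 (-0.35, SE 0.09, adjusted p = 0.046). Cd79a, the Ig alpha chain of the B cell receptor, was at 71.77, 85.58 and 92.33 against 125.0, 109.0 and 114.2 (-0.43, SE 0.11, adjusted p = 0.046). These groups did not overlap. Cd79b, the Ig beta partner of Cd79a, lay the other way, at 5391, 5746 and 5981 against 5231, 4704 and 5278, and did not pass (0.23, adjusted p = 0.0631). Notch1, a receptor of lymphocyte fate decisions, was at 366.7, 371.9 and 391.4 against 457.0, 523.7 and 498.0 (-0.33, SE 0.08, adjusted p = 0.0355). Tap1, which carries peptides to MHC class I, was at 1318, 1527 and 1782 against 2249, 2036 and 1987 (-0.39, SE 0.09, adjusted p = 0.0346). All 3 treated nodes were below the controls for both.

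Separation of the groups was common on the panel. With housekeeping scaling the 3 treated nodes lay above all controls for 46 genes (10.3%) and below all for 92 (20.7%), which makes 138 (31%). With TMM scaling the groups did not overlap for 148 genes (33.3%), 75 above (16.9%) and 73 below (16.4%). Of the 32 calls 29 did not overlap with housekeeping scaling and 32 with TMM, and all 32 had at least 20 scaled counts in every node.

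A fit of the 6 nodes alone, which leaves out the spread of the spleens and has 4 residual degrees of freedom in place of 8, called 15 genes (3.37%) with housekeeping scaling, 2 higher (0.449%) and 13 lower (2.92%). Cxcl13 and Il7r were the higher genes. The lower ones were Map4k2, Jak3, Ikbke, Chuk, Notch1, Cd5, Cd27, Cd6, Spn, Irf1, Tnfrsf14, Lef1 and Il27ra, the last pair outside the naming rule and named after their values were seen. Tnfrsf14, the herpesvirus entry mediator of lymphocytes, stood at 480.2, 553.2 and 498.1 against 752.9, 706.5 and 690.7 (adjusted p = 0.0148, edgeR on nodes alone). Over all 12 samples it did not pass, at -0.49 with an SE of 0.24 (adjusted p = 0.264). Irf1, a transcription factor of the interferon response, was at 2054, 2119 and 2105 against 2491, 2539 and 2480, with little spread in either group (adjusted p = 0.0491 on nodes alone). Cd6, a T cell adhesion and signalling receptor, was at 415.0, 442.2 and 422.6 against 578.1, 528.4 and 578.1 (adjusted p = 0.024 on nodes alone). With TMM the nodes alone gave 49 calls (11%), 29 higher (6.52%) and 20 lower (4.49%), and 28 of the 32 genes were among them. The methods' t-test at its fold of 1.25 and level of 0.05 called 35 genes (7.87%), 11 higher and 24 lower. After Benjamini-Hochberg adjustment it called 2 lower genes, Irf1 and Il6ra, and neither Cxcl13 (adjusted p = 0.304) nor Map4k2 (adjusted p = 0.291).

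The TMM calls depended on single samples. Their number, 32 over all samples, was 6, 1 and 3 without ampicillin nodes 1, 2 and 3, and 3, 34 and 4 without control nodes 1, 2 and 3. Without ampicillin spleens 1, 2 and 3 it was 41, 20 and 29, and without control spleens 1, 2 and 3 it was 8, 14 and 23. The spleens enter through the spread and also through the TMM factors, which were computed anew in each of these fits. The TMM change of Cxcl13 in nodes was 0.757 without control spleen 2, against 0.781 over all samples. With housekeeping scaling the 2 calls were 0, 1 and 4 without ampicillin nodes 1, 2 and 3, and 0, 6 and 0 without control nodes 1, 2 and 3. Leaving out ampicillin spleens 1 and 2 gave 32 and 3, and the other spleens 2 each. After Cxcl13 and Map4k2, the genes that passed most often with TMM were Ly96, Bst1, Ifngr1 and Tap1, each in 8 of 12 fits, but in 2 of the 6 that left out a node.

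The genes were also read as lists by function, drawn up with earlier results of these data known and described by counts and medians. The background is a median of -0.05 with housekeeping scaling and a called share of 7.19% with TMM. The JAK, STAT and SOCS list had 14 of 14 members below 0 (13 with TMM) and a median of -0.18 (-0.13 with TMM). With TMM 3 members were called lower, Jak3, Socs3 and Stat5a. The median was below those of the NF-kB, TRAF and MAP kinase lists but above the -0.22 of the Notch and lymphocyte fate list. The list of NF-kB and its IKK kinases had 13 of 15 members below 0 at a median of -0.08 (11 at -0.02 with TMM), with 3 called lower with TMM, Ikbke, Chuk and Nfkbiz. The subunits Nfkb1 and Nfkb2 were not called. Ikbkap, whose product was first described as an IKK-associated protein, was at 121.4, 140.6 and 146.9 against 198.2, 194.5 and 180.8 and did not pass (-0.49, SE 0.17, adjusted p = 0.154, housekeeping scaling).

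**Figure D3:**
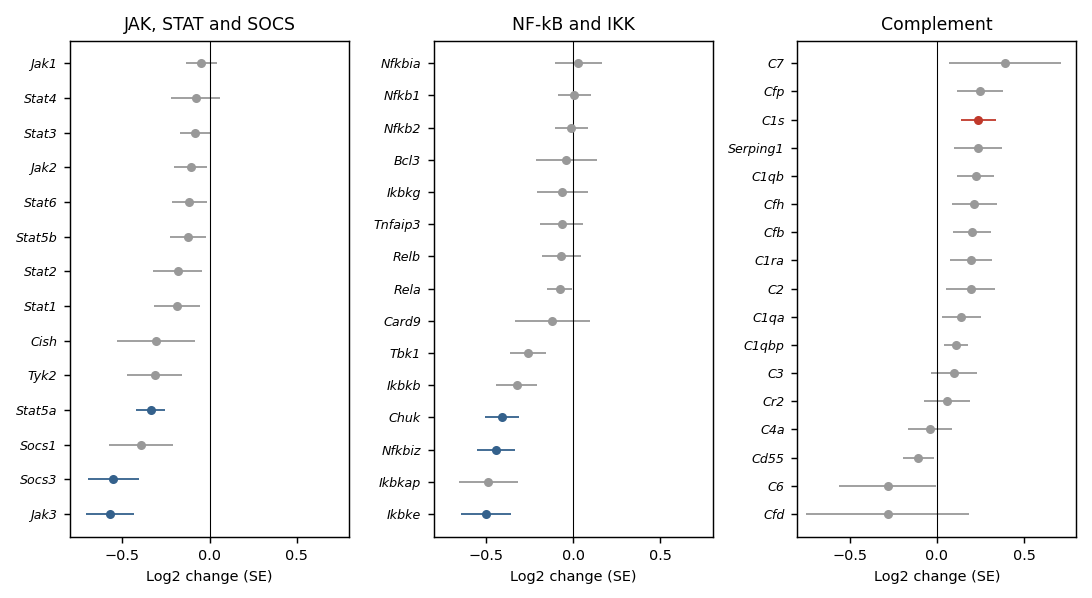
Log2 change with its SE (housekeeping scaling, edgeR) of every tested member of 3 lists, the JAK, STAT and SOCS genes, the NF-kB and IKK genes and the complement genes; blue and red mark members called lower and higher with TMM scaling. All 14 JAK, STAT and SOCS members lie below 0, and 13 of the 17 complement members lie above 0.

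Lists of T cells lay below 0. The T cell receptor list had 13 of 15 members below 0, a median of -0.18 and 1 called lower with TMM, Cd5. The naive T cell and coreceptor list had 10 of 12 below 0 at a median of -0.17, with Cd27 lower and Il7r higher with TMM. The costimulation list had a median of -0.14 with 12 of 15 below 0, and the regulatory T cell list a median of -0.21 with 0 of 10 members called. In the latter Foxp3, which fixes the fate of these cells, was at 122.7, 113.1 and 127.4 against 149.4, 142.9 and 162.6 (-0.33, SE 0.17, adjusted p = 0.285, housekeeping scaling). The Notch and lymphocyte fate list had 13 of 14 members below 0 at -0.22, with Notch1 called lower with TMM. Among natural killer and cytotoxic genes 13 of 14 were below 0 (11 with TMM) at a median of -0.16, and 0 were called.

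B cell genes were divided. Of 17 tested, 7 had all treated nodes below all controls and 3 all above with housekeeping scaling. Over all 445 genes those shares were 20.7% and 10.3%. The median of the B cell list was -0.09, and TMM called Cd81 higher and Cd79a lower. Ms4a1, which encodes CD20, stood at 4388, 4451 and 4056 against 3909, 3393 and 3881 (0.21, SE 0.10, adjusted p = 0.263, housekeeping scaling). Cd22, a sialic acid-binding inhibitor, went the other way, at 576.8, 720.3 and 728.2 against 909.1, 789.7 and 860.5 (-0.34, SE 0.12, adjusted p = 0.176). Neither gene passed with either scaling.

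The monocyte and macrophage, stromal and complement lists lay above 0, while the dendritic cell list had a median of 0. The dendritic cell list had 6 of 11 members above 0. The stroma, vessel and mesentery list had 7 of 10 above 0 at a median of 0.14 (0.19 with TMM). The monocyte and macrophage list had 18 of 23 members above 0 at a median of 0.17 (0.22 with TMM), with Ccl9 and Bst1 called higher with TMM. The complement list had 13 of 17 above 0 at 0.19 (0.25 with TMM), with C1s called. C1qb, a chain of the recognition protein C1q, was at 1978, 2265 and 2282 against 1835, 2025 and 1736 and did not pass (0.28, adjusted p = 0.0835, TMM). Cfp, properdin, which stabilises the alternative pathway convertase, was at 1321, 1540 and 1464 against 1097, 1309 and 1236 (0.30, adjusted p = 0.147, TMM). Chemokines had 12 of 17 above 0 at a median of 0.17, with 3 called higher with TMM. The Toll-like receptor list had 10 of 17 above 0 at 0.05, with Ly96 and Ly86 called. MHC class II had 7 of 9 above 0 at 0.06, with Cd74 called. Its chains H2-Aa and H2-Ab1, at 0.08 each, and H2-Eb1, at 0.03, overlapped between groups with housekeeping scaling. MHC class I had 5 of 13 above 0 at -0.04, with Tap1 called lower.

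**Figure D4:**
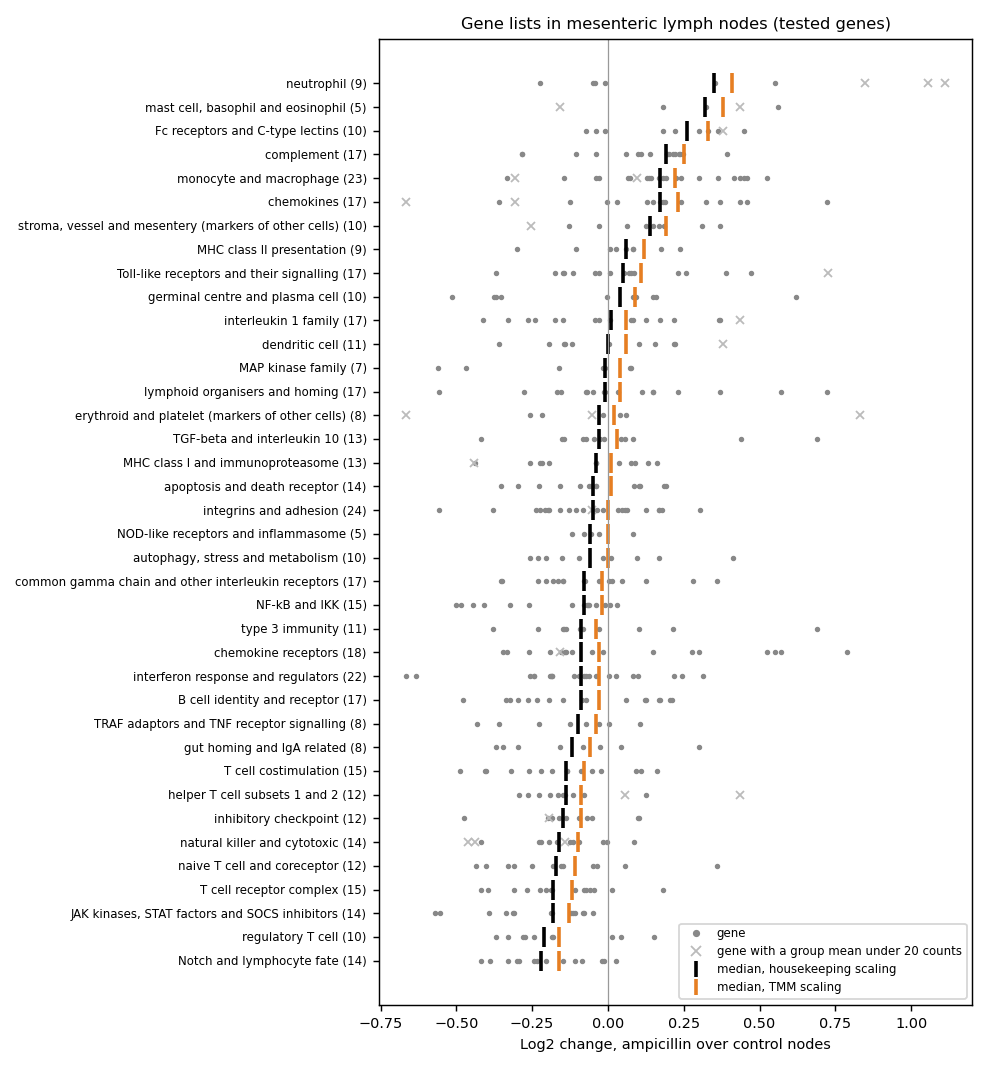
Log2 change (housekeeping scaling) of each tested gene in 38 lists by function, ampicillin over control nodes; the number of tested genes stands in parentheses, crosses are genes averaging under 20 counts in a group, and bars are list medians with housekeeping (black) and TMM (orange) scaling. Medians run from -0.22 for Notch and lymphocyte fate to 0.35 for neutrophil genes.

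Some genes, most of them of few counts, had sizeable log2 changes and were not called. The neutrophil list had the highest median, 0.35 (0.41 with TMM), with 5 of 9 members above 0 (8 with TMM) and 0 called. S100a9, a calprotectin subunit of neutrophils, stood at 41.76, 32.6 and 36.41 against 23.44, 15.23 and 14.27 (1.06, SE 0.67, adjusted p = 0.383, housekeeping scaling). Its groups did not overlap, yet every node held few counts. S100a8, the other subunit, overlapped, at 48.28, 20.38 and 37.71 against 27.34, 15.23 and 15.07 (adjusted p = 0.534). Cxcr2, the neutrophil chemokine receptor, was at 75.69, 75.39 and 85.83 against 53.71, 62.1 and 46.79 (0.55, SE 0.23, adjusted p = 0.202). Tlr5, the receptor of bacterial flagellin, was at 32.62, 25.47 and 32.51 against 20.51, 15.23 and 18.24 (0.72, SE 0.29, adjusted p = 0.189). Kit, a receptor of mast cells and progenitors, was at 36.54, 40.75 and 48.12 against 29.3, 25.78 and 29.34 (0.56, SE 0.21, adjusted p = 0.176). In the other direction Il17rb, an interleukin 25 receptor chain, was at 18.27, 30.56 and 28.61 against 36.13, 45.69 and 44.41 (-0.69, SE 0.23, adjusted p = 0.14). Irf3, a factor that switches on type I interferon, was at 35.23, 37.69 and 19.51 against 46.87, 46.87 and 53.93 (-0.67, SE 0.23, adjusted p = 0.154). Mx1, an interferon-induced antiviral protein, overlapped at 113.5, 207.8 and 189.9 against 290.0, 305.8 and 203.8 (-0.63, SE 0.22, adjusted p = 0.154). Of the 445 tested genes 16 averaged under 20 counts in both node groups and 7 in 1 group.

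Markers of cell types were summed in the nodes. Control spleens carried such markers too, with means of 1541 for Cd3d and 8834 for Cd79b. Their presence therefore does not tell node from spleen. Summed over 8 T cell markers the treated nodes held 11550 to 12660 scaled counts and the controls 13170 to 14560, and over 6 B cell markers 13090 to 14320 and 12170 to 13820. T cell markers were below 0 for 8 of 8 genes (7 with TMM) and their sums did not overlap. Cd5 is among these markers, and they moved unequally, with Cd3d at -0.06 and Cd3e at -0.11 beside -0.42 for Cd5 (housekeeping scaling). Neutrophil markers (4 of 5 above 0) summed to 198.7 to 221.8 in treated nodes and 122.1 to 161.1 in controls, also without overlap. Stromal and vessel markers (4 of 5 above 0), which include Cxcl12, summed to 8661 to 9773 and 7317 to 9139. Macrophage markers (4 of 5 above 0) summed to 1516 to 1960 and 1559 to 1804. Dendritic cell markers (1 of 3 above 0) summed to 2378 to 2589 and 2261 to 2337, without overlap. Most of that sum was Cd83, the marker above 0, at means of 2093 and 1880. The median of the dendritic cell markers was -0.12. Natural killer markers (0 of 4 above 0) summed to 508.9 to 639.8 and 582.9 to 709, erythroid markers (1 of 4 above 0) to 469.4 to 562.4 and 604.3 to 619.8, again without overlap, and platelet markers (1 of 3 above 0) to 181.4 to 204.8 and 169.9 to 217.3. Little of the erythroid sum came from Abcb10, at means of 57.08 in treated nodes and 66.1 in controls, or from Icam4, at 8.176 and 8.701. Most of it came from Tfrc and Tal1, and Tfrc was also listed among autophagy, stress and metabolism genes. Whether that sum reflects erythroid cells was not tested. Of the mast cell markers only Kit was tested. No tested marker was at 0 in a group mean, and Camp, Cd163, Icam4, Gp1bb and Ppbp averaged under 20 counts in both groups. The part of cell composition in the calls was not tested.

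The scaling genes leaned by level. Of the 14 housekeeping genes the 5 above 4000 scaled counts, Rpl19, Ppia, Gapdh, Oaz1 and Eef1g, had log2 differences of 0.07 to 0.12, all above 0. Of the 9 below that level 2 were above 0, and they ran from -0.21 (Polr2a) to 0.11 (Hprt). The level of 4000 was chosen after these values were seen. Among tested genes the median log2 change was -0.02 in the third of highest counts, which held 10 of the 18 higher and 5 of the 14 lower calls. It was -0.08 in the middle and -0.06 in the lowest, which held 2 of each. The part of probe level in the calls was not tested.

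Whether the nodes differed from the spleen was tested as the ampicillin effect in nodes minus that in spleen. With 0 genes called by edgeR under either scaling (49 at an unadjusted p under 0.05, 11%) and 0 by DESeq2, no gene can be called particular to the nodes. Without ampicillin spleen 1 the count was 59 with housekeeping scaling. The 14 lower genes were below 0 in spleen in 14 of 14 cases (12 with TMM), where 346 of all 445 genes were (222 with TMM). Their median spleen change was -0.37 against -0.17 for all genes. Map4k2 was called lower in spleen too, at -0.40 (adjusted p = 0.0135), and so were Tap1 at -0.56 (adjusted p = 0.0169), Cd5 at -0.62 (adjusted p = 0.0169), Cd27 at -0.56 (adjusted p = 0.0198), Traf1 at -0.46 (adjusted p = 0.019) and Cd79a at -0.53 (adjusted p = 0.0247). Calls in spleen were not limited to these genes. Outside the 32, Casp1 (-0.495, adjusted p = 0.0135) and Cd4 (-0.422, adjusted p = 0.0251) were called lower there and Ccrl2 higher (1.425, adjusted p = 0.0169, edgeR, housekeeping scaling). The share of all 445 genes called in spleen is not given here, so the spleen calls cannot be set against it. Of the 18 higher genes 7 were above 0 in spleen (15 with TMM), against 99 of all 445 (223 with TMM), and their median was -0.05. Cxcl13 changed by 0.16 (SE 0.12, adjusted p = 0.388) in spleen, and the difference of effects was 0.56 (SE 0.18, adjusted p = 0.309). Of the 32 genes Ccrl1 had the widest gap, 0.79 in nodes and -0.25 in spleen, a difference of 1.03 (SE 0.35, adjusted p = 0.309). For Chuk the difference was -0.29 (SE 0.13, adjusted p = 0.435) and for Il7r 0.30 (SE 0.18, adjusted p = 0.54). Both tissues share 1 estimate of spread per gene but no samples.

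**Figure D5:**
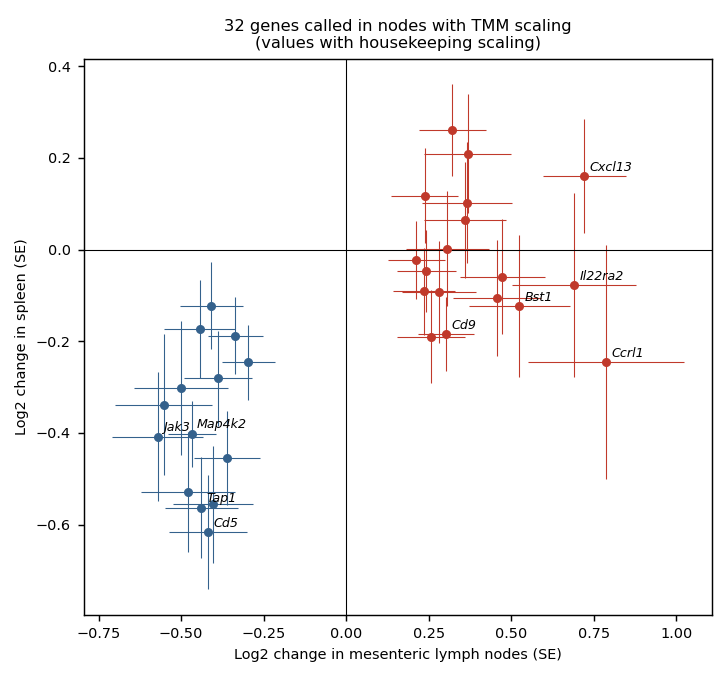
Log2 change with ampicillin in nodes (horizontal) against that in spleen (vertical) for the 32 genes called in nodes with TMM scaling, with SEs (housekeeping scaling, edgeR); red genes were called higher in nodes and blue genes lower. All 14 blue points lie below 0 in spleen, and 7 of the 18 red points lie above 0.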

How the data were processed

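The deposited table held whole-number counts per gene. It is labelled as normalized to 14 housekeeping genes in nSolver, per the labels' design text, but its totals and housekeeping means vary as raw counts do, so the counts were scaled here. The text gives only the number of those genes, and they were named here from knowledge of the panel. A further deposited table had 12 value columns matching no sample label and was not used, so no background was set from control probes. Housekeeping geometric means or TMM factors scaled the counts, and edgeR 4.0.16 in R 4.3.3 (quasi-likelihood, 4 group means over 12 samples, 8 residual degrees of freedom) tested 445 genes averaging at least 20 scaled counts, leaving out 102. DESeq2 1.42.0, limma 3.58.1 (log2 of scaled counts plus 1), other scalings, filters, the nodes alone, samples left out and a replicate block were alternatives, as was the methods' t-test of the design text. Tests were tried on simulated data.

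Members and lists were chosen with earlier results of these data known. Genes named in the text were drawn, unless stated, from the called genes and the 40 of smallest p. Up to 6 members per list by change and level, the 10 most abundant, markers and housekeeping genes were the other sources. Every called gene is named, but not every gene of the other groups. An unnamed gene may therefore be among the 40 of smallest p. Of 561 symbols 545 were current, 14 matched 1 synonym and 2 none. Replicates are separate mice, and every pair differed beyond counting noise. Labels name no batch or run. Promoters are from RefSeq (GRCm38.p6). Some items are not reported here.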

Additional observations from a re-analysis of the deposited data

How the results depend on the processing

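The count of genes called between ampicillin and control nodes with housekeeping scaling, 2, stayed at 2 with limma, robust empirical Bayes, no filter on low counts, a minimum mean of 50 and a minimum mean of 20 over the nodes alone (added after seeing the data), each time Cxcl13 and Map4k2. The methods' t-test with Benjamini-Hochberg adjustment also called 2, but neither of these genes. The count was 32 with TMM scaling, 26 with median scaling, 6 with upper quartile scaling, 22 with DESeq2 on housekeeping size factors, 44 with DESeq2 on its own, 23 with limma on TMM-scaled values, 15 with nodes alone, 49 with nodes alone and TMM, and 35 with the methods' t-test at its fold and level. With 1 replicate left out it ran from 0 to 32. The TMM count of 32 was 49 with nodes alone, and 1 to 41 with 1 replicate left out of all samples. It was 6, 1 and 3 without ampicillin nodes 1, 2 and 3, 3 and 4 without control nodes 1 and 3, 20 without ampicillin spleen 2, and 8 and 14 without control spleens 1 and 2. From 49 with nodes alone it became 8 to 70, with 21 and 8 when ampicillin nodes 1 and 2 were left out, and 13 and 70 when control nodes 1 and 2 were. The TMM fits that leave out a spleen, or a node from nodes alone, were added after seeing the data. The difference between nodes and spleen gave 0 calls under the alternatives that kept all samples, and 0 to 59 with 1 replicate left out. With the replicate number as a block the counts were 0 (housekeeping) and 2 (TMM, added after seeing the data). Same-numbered nodes are different mice by their labels. Their deviations from the group means correlated at -0.043, -0.085 and -0.352, and those of unlike-numbered nodes at -0.137 to 0.226. With 3 samples a group these values cannot show whether same-numbered samples shared a run. Of 2398 log2 changes of 48 genes over the fits, 0 turned sign. These genes were picked because they were called or had small p values in these same data, and the fits reuse the same nodes. Kept signs were therefore largely fixed by that choice, so the count cannot show that the changes are robust. With 3 samples a group, genes of few counts had wide errors. The cause of the changes in count was not tested.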
